A study of Mus musculus with 6 samples.

Results

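Cytotoxic lymphocytes kill by emptying granules onto a target cell: perforin opens the target's membrane, and granzymes, a family of serine proteases, pass through and cleave proteins inside. The 8 genes described here are Gzma, Gzmb, Gzmk, Gzmm, Gzmc and Gzmf, which encode granzymes, Prf1, which encodes perforin, and Nkg7, which encodes a granule membrane protein that takes part in granule release. They were listed by name out of 32286 gene features of 3 single-cell libraries, and all 8 were among the features. In the liver these genes are known mainly from natural killer (NK) cells, type 1 innate lymphoid cells (ILC1) and T cells. Their unique molecular identifiers (UMIs, counts of captured RNA molecules) were followed across CD8 T cells, natural killer T (NKT) cells, gamma-delta T cells, NK cells and ILC1.

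The libraries held immune cells of tumor-bearing mouse livers at day 30 after infection. The AAV-sgBaat group received an adeno-associated virus (AAV) with a guide to Baat, whose enzyme joins bile acids to amino acids, the AAV-sgSCR group an AAV titled as the control, and the mock group a mock infection. Each group was 1 library from a pool of 3 tumor samples, so that differences between groups have no replicate check and no test. The title of the mock library calls it a native liver, whereas the series text speaks of tumor-bearing livers. T cells (CD45hi CD3+) and the remaining CD45hi cells had been sorted, so the numbers of cells in a class follow the sort. Strain, age and sex were not given in the sources used here, and no label says which cells carry CD90.1 rather than CD90.2, the 2 forms of the Thy1 surface protein that the antibody tags distinguish.

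Barcodes were kept with at least 500 genes, at least 1000 gene UMIs and at most 10% mitochondrial UMIs, which left 7094 in AAV-sgBaat, 7332 in AAV-sgSCR and 6068 in mock, from 48359443, 62570529 and 32005400 gene UMIs over all barcodes. Classes were set by marker UMIs that include none of the 8 genes. T barcodes that also carried a marker panel of another lineage were left out, and they were 52.5% of T barcodes in AAV-sgBaat, 34.5% in AAV-sgSCR and 14.4% in mock. Pairs of libraries shared 10 to 16 cell barcodes. S100a8 and S100a9, RNA of neutrophils, had 127 to 303 CPM (UMIs scaled to the class total) in the 6 classes of AAV-sgBaat and 347 to 418 CPM in those of AAV-sgSCR, against 0 to 8.39 CPM in those of mock. B cells, which should lack granzymes, gave the background from free RNA.

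CD8 T cells were divided by which antibody tag was higher, CD90.1 or CD90.2. The CD90.1-dominant class held 204 cells in AAV-sgBaat, 976 in AAV-sgSCR and 11 in mock, too few in mock to give a level. The CD90.2-dominant class held 291 cells in AAV-sgBaat, 587 in AAV-sgSCR and 480 in mock. There were 42, 115 and 355 NKT cells, 46, 72 and 78 gamma-delta T cells, 90, 111 and 405 NK cells and 57, 102 and 103 ILC1, in that order of libraries. Their median depth lay between 2974.5 UMIs (NK cells of AAV-sgBaat) and 6090.5 UMIs (CD90.2-dominant CD8 T cells of mock). Among genes not used to set the classes, the ILC1 genes Tmem176a, Tmem176b and Ltb together had 1198 to 1830 CPM in ILC1 and 133 to 433 CPM in NK cells. These 3 genes had 789 to 1728 CPM in gamma-delta T cells too. The gamma-delta class held 1472 to 1910 CPM of the alpha and beta receptor constant genes beside 496 to 794 CPM of the gamma constant genes. ILC1 held 964 to 1409 CPM of the first and 204 to 275 CPM of the second, against 640 to 750 CPM and 3.59 to 24.4 CPM in NK cells.

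In what follows a level is the summed UMIs of a gene in a class, scaled to the gene UMIs of that class (CPM). Values in square brackets are exact 95% intervals, which cover counting error only. A ratio is given on the log2 scale with the first-named library on top, and "past 1.5-fold" describes a pair of libraries and not the conditions.

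In RefSeq's GRCm38.p6 (mm10), Gzma (ENSMUSG00000023132, chr13:113093824-113100981) and Gzmk (ENSMUSG00000042385, chr13:113171630-113180965) lie 70.6 kb apart. Gzmf (ENSMUSG00000015441, chr14:56205263-56211407), Gzmc (ENSMUSG00000079186, chr14:56231397-56241647) and Gzmb (ENSMUSG00000015437, chr14:56258836-56262334) follow each other on chromosome 14, with Gzmd, Gzme, Gzmg and Gzmn before them. Prf1 (ENSMUSG00000037202, chr10:61297751-61304684) and Gzmm (ENSMUSG00000054206, chr10:79689020-79695261) are on chromosome 10, and Nkg7 (ENSMUSG00000004612, chr7:43437138-43438246) is on chromosome 7.

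Gzma and Gzmb are the granzymes with at least 20 UMIs over both AAV libraries that were past 1.5-fold in CD90.1-dominant CD8 T cells, and Gzmc and Gzmf are neighbours of which only the first was counted in number, so the 120 bases before the start sites of these 4 genes are shown. All 4 are on the minus strand and read 5′ to 3′ along it, from chr13:113100982-113101101 for Gzma, chr14:56262335-56262454 for Gzmb, chr14:56234658-56234777 for Gzmc and chr14:56211408-56211527 for Gzmf, as RefSeq gives them for GRCm38.p6. The start used for Gzmc lies inside the gene's annotated span. Capitals mark matches, on either strand, to the letters of 4 motifs: AP-1 (TGANTCA), RUNX (TGTGGT), T-box (AGGTGT) and CRE (TGACGTCA). No 2 of the marked matches overlap.
Gzma: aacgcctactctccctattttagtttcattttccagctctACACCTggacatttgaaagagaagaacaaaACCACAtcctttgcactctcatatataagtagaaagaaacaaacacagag
Gzmb: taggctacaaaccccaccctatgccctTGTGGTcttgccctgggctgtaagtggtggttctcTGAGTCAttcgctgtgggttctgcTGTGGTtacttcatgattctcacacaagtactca
Gzmc: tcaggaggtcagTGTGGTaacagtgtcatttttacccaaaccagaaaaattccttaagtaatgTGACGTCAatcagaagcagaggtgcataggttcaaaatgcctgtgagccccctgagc
Gzmf: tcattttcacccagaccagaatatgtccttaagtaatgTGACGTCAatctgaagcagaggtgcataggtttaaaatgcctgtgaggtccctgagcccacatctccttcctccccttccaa

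Over the 250 bases before the start, Gzma held 1 RUNX and 1 T-box match, Gzmb 1 AP-1 and 2 RUNX matches, and Gzmc and Gzmf each 2 RUNX matches and 1 CRE match. Of 32851 promoters in the RefSeq table, 14.05% held the RUNX letters in these 250 bases, 11.8% the T-box letters, 6.75% the AP-1 letters and 1.55% the CRE letters. In a global alignment of the 250 bases, Gzmc and Gzmf were 71.5% identical, and Gzmb and Gzmc 50.2%. A match describes the letters and says nothing of binding.

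The 8 genes had different homes among the 6 classes. Gzma and Prf1 were highest in NK cells of each library, Gzmb in NKT cells of both AAV libraries and in gamma-delta T cells of mock, Gzmk and Gzmm in CD90.2-dominant CD8 T cells, and Gzmc in ILC1. For Gzmc, ILC1 had 115, 358 and 76.4 CPM in AAV-sgBaat, AAV-sgSCR and mock, and NKT cells came next with 56.8, 234 and 50.7 CPM. A single cell held most of the ILC1 UMIs of Gzmc in AAV-sgBaat. Nkg7 was high in all 6 classes. Gzmf was at 0 UMIs nearly everywhere, and the other 4 granzyme genes of the features had 0 UMIs in all 6 classes of both AAV libraries. Part of the RNA of barcodes that passed the filters lay outside the 6 classes. Barcodes with markers of more than 1 lineage, which were left out, held 45.7% of the Gzma UMIs of AAV-sgBaat. They held 35.0% in AAV-sgSCR and 8.64% in mock, and of Gzmb 41.6%, 28.0% and 11.7%. Immature T barcodes, described at the end, held 12.9% of Gzma in AAV-sgBaat and 1.46% in AAV-sgSCR.

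**Figure D1:**
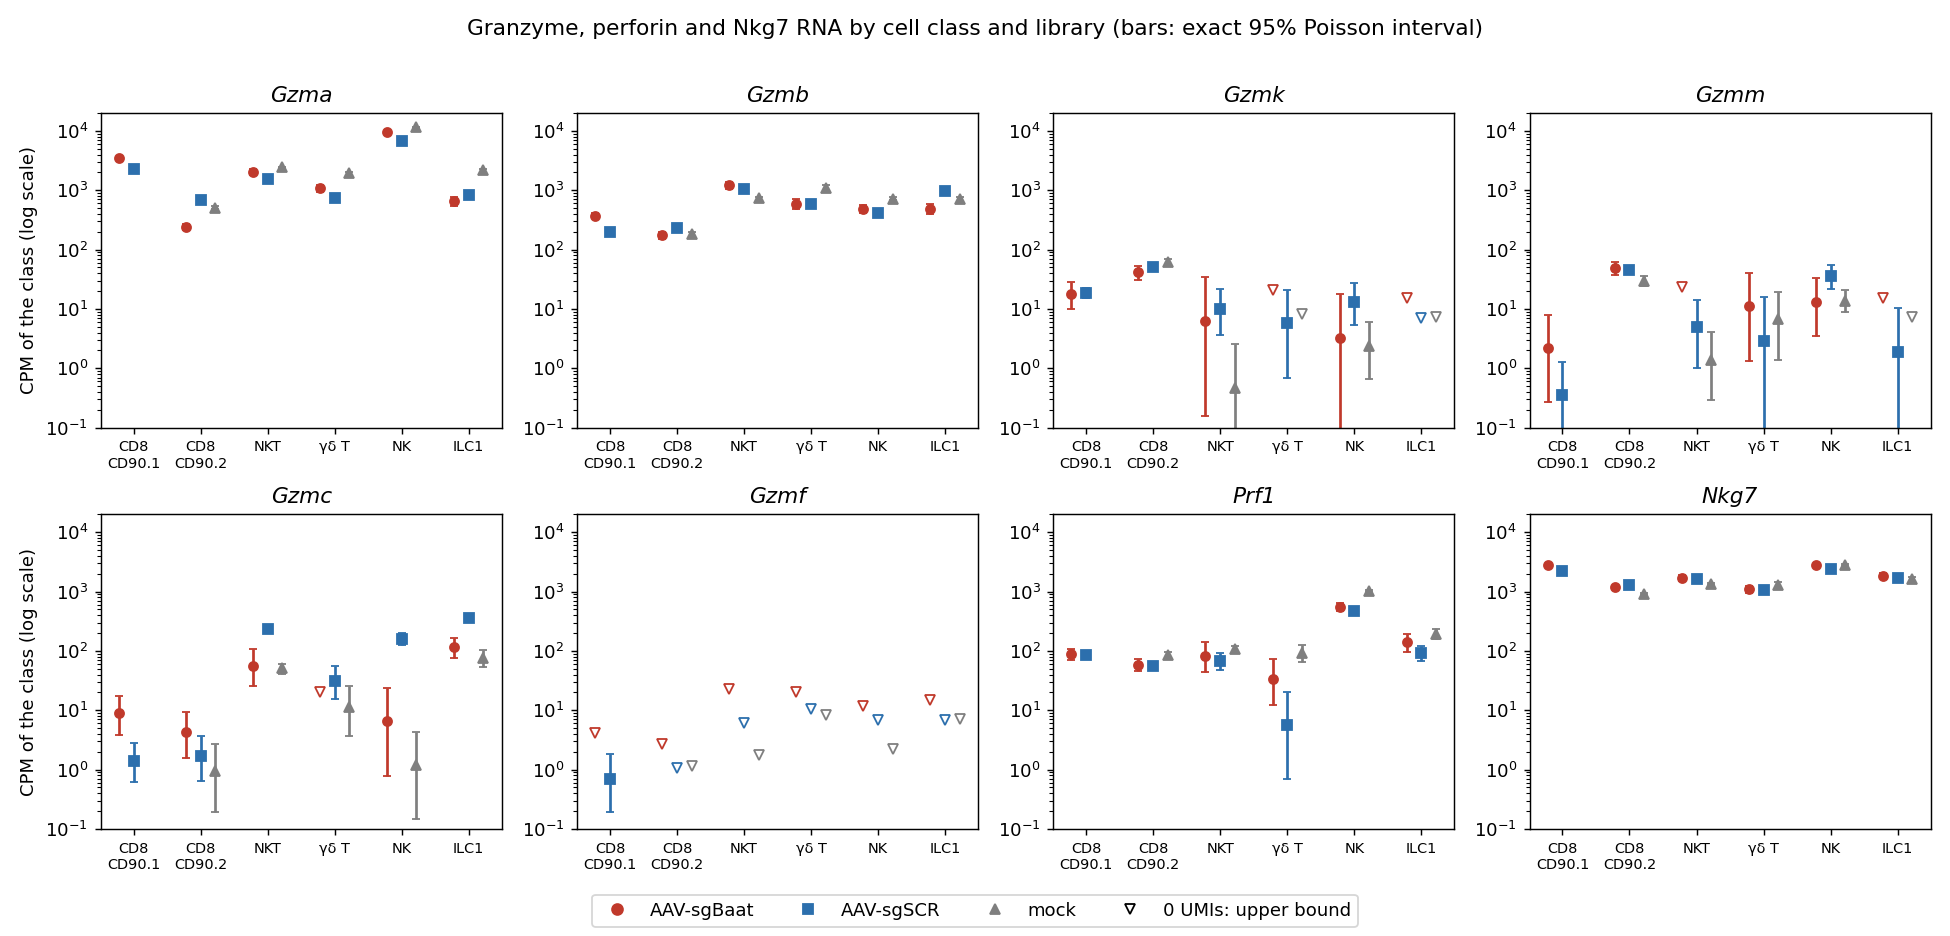
CPM (log scale) of each gene by cell class, with AAV-sgBaat, AAV-sgSCR and mock from left to right within a class. Points are the level of a class, bars the exact 95% Poisson interval, and open triangles the upper bound where 0 UMIs were counted; the 11 CD90.1-dominant cells of mock are not drawn. Gzma stands highest in NK cells, at 9473, 6727 and 11453 CPM, and Gzmk was at 0 UMIs in ILC1 of each library.

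Granzyme A cleaves proteins after basic residues. In NK cells, the innate lymphocytes that store it ready-made, Gzma had 9473 CPM [9132 to 9824] in AAV-sgBaat, 6727 CPM [6508 to 6950] in AAV-sgSCR and 11453 CPM [11291 to 11616] in mock. The 3 intervals do not overlap. A Gzma UMI was found in 81 of 90 NK cells of AAV-sgBaat, 82.9% of those of AAV-sgSCR and 99.0% of those of mock. With each cell thinned to 1500 UMIs, which left out 8, 4 and 4 cells, the shares were 89.0%, 79.4% and 98.5%, against thinned shares of 2.54%, 3.74% and 1.38% in B cells. Median depths were 2974.5, 4049 and 3795 UMIs in NK cells, and 2186, 2921 and 3450 UMIs in B cells, where thinning left out 43, 23 and 24 cells. Unthinned, 3.52%, 8.87% and 3.01% of B cells held a Gzma UMI.

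Below NK cells, the order of classes for Gzma differed between libraries. In AAV-sgBaat it ran from CD90.1-dominant CD8 T cells (3484 CPM) over NKT cells (2043), gamma-delta T cells (1078) and ILC1 (649) to CD90.2-dominant CD8 T cells (239), and no neighbouring intervals overlapped. In AAV-sgSCR it ran from CD90.1-dominant CD8 T cells (2245 CPM) over NKT cells (1550), ILC1 (841) and gamma-delta T cells (726) to CD90.2-dominant CD8 T cells (689), and the intervals of gamma-delta T cells overlapped those of both neighbours. In mock it ran from NKT cells (2423 CPM) over ILC1 (2181) and gamma-delta T cells (1933) to CD90.2-dominant CD8 T cells (510), and the intervals of ILC1 and gamma-delta T cells overlapped. Single cells weighed heavily in the small classes: 1 NKT cell of AAV-sgBaat held 130 of 324 Gzma UMIs, and 1 gamma-delta T cell of that library 76 of 194.

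Among CD8 T cells, Gzma differed between the AAV libraries in opposite directions by tag. CD90.1-dominant cells had 3484 CPM [3364 to 3608] in AAV-sgBaat, against 2245 CPM [2206 to 2284] in AAV-sgSCR, a log2 ratio of 0.63 [0.58 to 0.69] on 3149 and 12726 UMIs. CD90.2-dominant cells had 239 CPM [213 to 266] in AAV-sgBaat, against 689 CPM [661 to 717] in AAV-sgSCR, a log2 ratio of -1.53 [-1.70 to -1.36] on 329 and 2398 UMIs. Within a library, CD90.1-dominant cells exceeded CD90.2-dominant cells 14.6-fold in AAV-sgBaat but 3.26-fold in AAV-sgSCR. The difference between these ratios was not tested.

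The same contrast stood in the shares of cells. Thinned, 51.8% [44.5 to 59.1] of 191 CD90.1-dominant cells of AAV-sgBaat and 38.3% [35.2 to 41.4] of 972 such cells of AAV-sgSCR held a Gzma UMI, with 13 and 4 cells left out. Unthinned, the shares were 59.3% and 47.2%, at median depths of 3888.5 and 5019.5 UMIs. Of CD90.2-dominant cells, 6.32% of 285 in AAV-sgBaat, 15.9% of 586 in AAV-sgSCR and 10.6% of 480 in mock held one when thinned, and 10.3%, 23.5% and 14.8% unthinned, at median depths of 4339, 5456 and 6090.5 UMIs. Cells with 10 or more Gzma UMIs after thinning were 14.7% of the CD90.1-dominant class in AAV-sgBaat, against 10.4% in AAV-sgSCR. In the CD90.2-dominant class they were 1.40% in AAV-sgBaat, against 6.997% in AAV-sgSCR and 3.33% in mock.

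**Figure D2:**
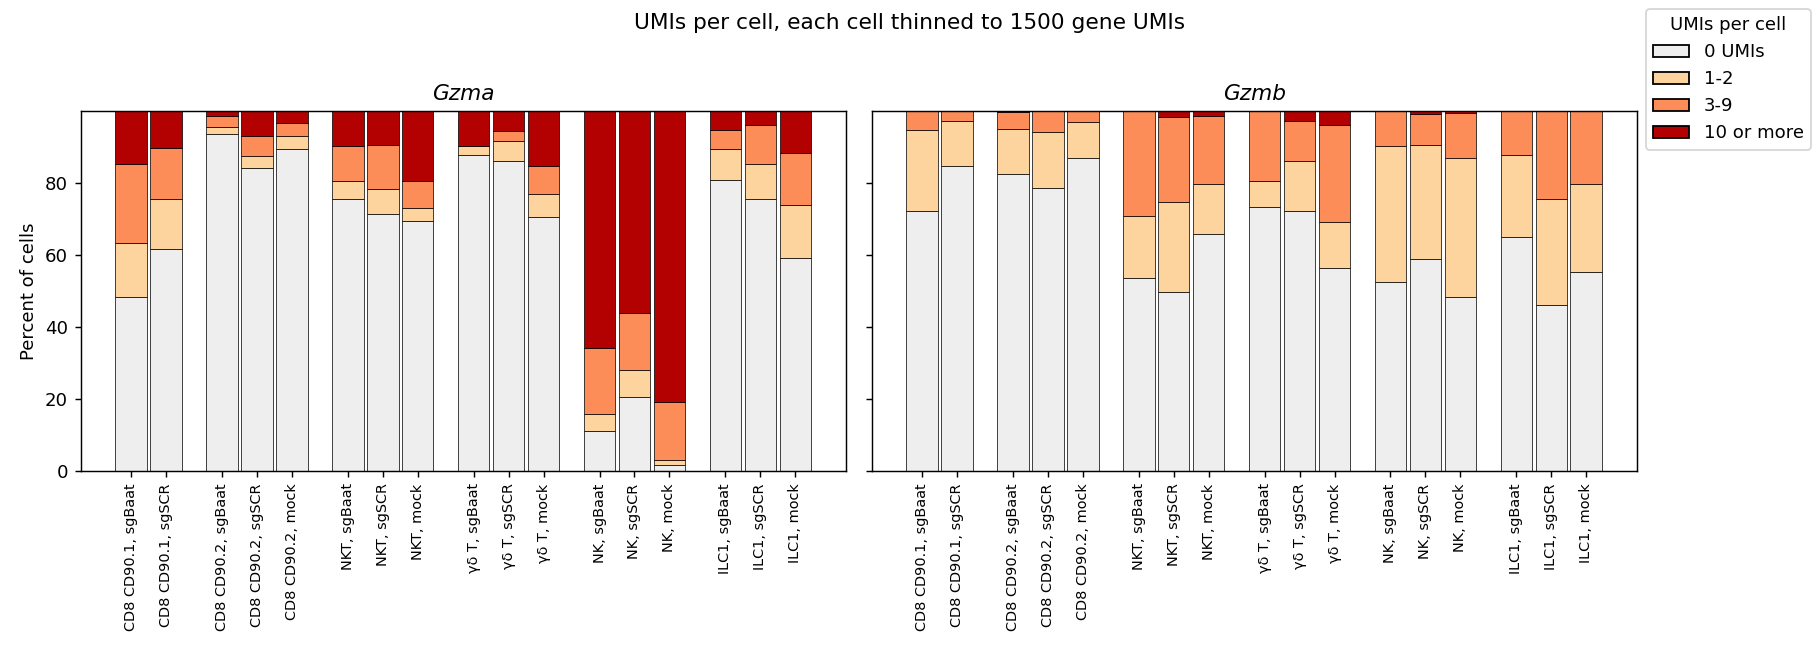
Percent of cells with 0, 1 to 2, 3 to 9 and 10 or more UMIs of Gzma and of Gzmb, each cell thinned to 1500 gene UMIs, by class, with AAV-sgBaat, AAV-sgSCR and mock from left to right. Cells with 10 or more Gzma UMIs made up 65.9%, 56.1% and 81.0% of NK cells, and 1.40%, 6.997% and 3.33% of CD90.2-dominant CD8 T cells.

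Granzyme B cleaves after aspartate and sets off apoptosis in the target cell. NKT cells, T cells that respond to lipid antigens, had 1217 CPM [1051 to 1401] of Gzmb in AAV-sgBaat, 1052 CPM [972 to 1136] in AAV-sgSCR and 728 CPM [692 to 765] in mock. Gamma-delta T cells had 583 CPM in AAV-sgBaat, 589 CPM in AAV-sgSCR and 1104 CPM in mock, and NK cells 485, 410 and 716 CPM. ILC1 had 485 CPM [401 to 580] in AAV-sgBaat, 989 CPM [906 to 1077] in AAV-sgSCR and 704 CPM [633 to 780] in mock. In AAV-sgBaat the intervals of gamma-delta T cells, NK cells and ILC1 overlapped, and in AAV-sgSCR those of NKT cells and ILC1.

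In CD90.1-dominant CD8 T cells Gzmb had 374 CPM [335 to 416] in AAV-sgBaat, against 198 CPM [186 to 209] in AAV-sgSCR, a log2 ratio of 0.92 [0.74 to 1.098] on 338 and 1120 UMIs. Thinned, 27.7% of these cells in AAV-sgBaat held a UMI and 15.2% of those in AAV-sgSCR, against 0.282% and 0.277% of B cells. Unthinned, the shares were 41.2% and 28.5%, against 0.503% and 1.08% of B cells. CD90.2-dominant cells had 175 CPM in AAV-sgBaat, 229 CPM in AAV-sgSCR and 182 CPM in mock, with a log2 ratio between the AAV libraries of -0.39 [-0.60 to -0.18].

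Nkg7 and Prf1 differed less in the CD90.1-dominant cells. Nkg7 had 2767 CPM in AAV-sgBaat, against 2258 CPM in AAV-sgSCR (log2 ratio 0.29, [0.23 to 0.36]), Prf1 87.4 against 85.9 CPM (0.03, [-0.34 to 0.37]) and Gzmk 17.7 against 18.5 CPM (-0.06, [-0.92 to 0.70]). Of these 5 genes, the ones with at least 20 UMIs over both libraries, 2 (Gzma and Gzmb) were past 1.5-fold higher, as were 9.74% of the 9868 genes so counted, and 0 were past it lower, as were 16.4%. Their median log2 ratio was 0.29, against -0.01 over all genes. The 11 CD90.1-dominant cells of mock held 241 UMIs of Gzma, 139 of them in 1 cell, and 36 of Gzmb, 22 of Gzmk, 31 of Prf1 and 259 of Nkg7.

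Gzma lay close to the limit, at 1.55-fold. Its log2 ratio was 0.52 without the cell with most Gzma UMIs in each library, 0.49 without cycling cells, 0.49 without the deepest 5% of barcodes, 0.57 with mitochondrial and ribosomal genes left out of the total and 0.53 with cells thinned to 1000 UMIs, all under 1.5-fold. That of Gzmb was under 1.5-fold in 1 of the settings tried, at 0.46 without cycling cells.

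In CD90.2-dominant CD8 T cells, of 6 counted genes 0 were past 1.5-fold higher in AAV-sgBaat relative to AAV-sgSCR, as were 5.0% of 8953 genes, and 1 (Gzma) was past it lower, as were 11.9%. The median log2 ratio of the 6 was -0.22, against -0.04 over all genes. Gzmk (-0.31), Gzmm (0.09) and Prf1 (0.08) had intervals that include 0, and Nkg7 was at -0.13 [-0.21 to -0.05]. Neutrophil RNA in these cells was at 149 CPM in AAV-sgBaat, against 353 CPM in AAV-sgSCR, and its part in the result was not tested.

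**Figure D3:**
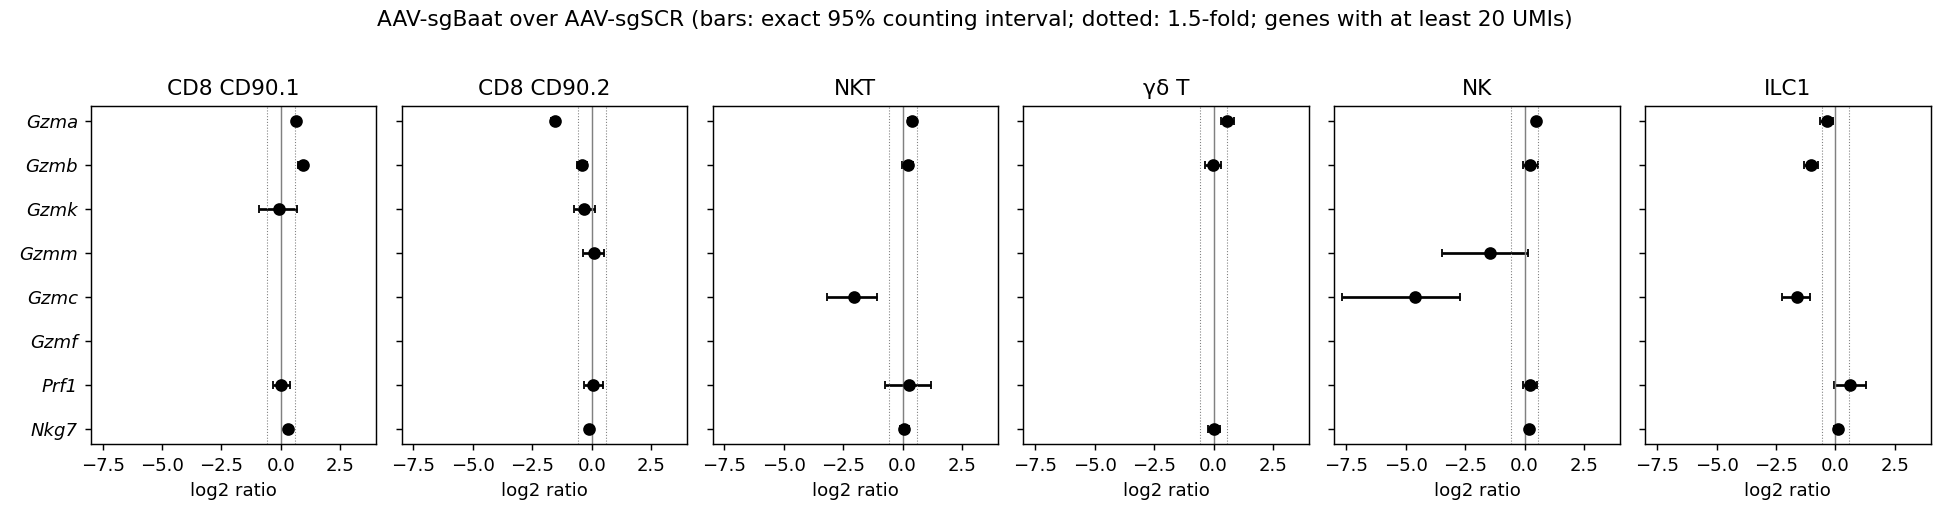
Log2 ratio of AAV-sgBaat over AAV-sgSCR for each gene in each class, with positive values higher in AAV-sgBaat. Bars are exact 95% counting intervals, dotted lines mark 1.5-fold, and genes under 20 UMIs over both libraries have no point. Gzma lies at 0.63 in CD90.1-dominant and at -1.53 in CD90.2-dominant CD8 T cells.

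Cells carrying cell cycle RNA differed more in Gzmb. With at least 2 UMIs of Mki67, Top2a, Birc5, Ccnb2 and Cdk1 taken as cycling, 17.2% of CD90.1-dominant cells were so in AAV-sgBaat, against 12.5% in AAV-sgSCR. In the 35 cycling cells of AAV-sgBaat Gzmb had 643 CPM [546 to 752], against 191 CPM [167 to 217] in the 122 of AAV-sgSCR, a log2 ratio of 1.75 [1.45 to 2.05]. In the other cells it had 274 CPM in AAV-sgBaat, against 199 CPM in AAV-sgSCR, a log2 ratio of 0.46 [0.22 to 0.69]. Gzma was higher in cycling cells of both libraries, with 5799 CPM in AAV-sgBaat and 3700 CPM in AAV-sgSCR, than in the other cells, with 2627 and 1864 CPM. Prf1 was lower in cycling cells, at 57.3 and 55.4 CPM on 14 and 65 UMIs, than in the other cells, at 98.5 and 93.9 CPM. In AAV-sgBaat the intervals of the cycling [31.3 to 96.2] and the other cells [76.1 to 125.6] overlap. The cut makes a range and not a type: 42 cells of AAV-sgBaat and 172 of AAV-sgSCR had 1 UMI, and 14 and 45 had 2.

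In CD90.2-dominant cells the lower Gzma of AAV-sgBaat was present on both sides of that cut. Cycling cells had 208 CPM in AAV-sgBaat, 806 CPM in AAV-sgSCR and 1398 CPM in mock, and the others 245, 670 and 421 CPM. The 26 cycling cells of mock stood above those of both AAV libraries also for Gzmk, with 288 CPM against 53.0 CPM in AAV-sgBaat and 39.6 CPM in AAV-sgSCR.

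Ccl5, a chemokine gene of effector and memory T cells, split the CD8 T cells sharply for Gzma and Gzmb. At least 2 Ccl5 UMIs were counted in 88.7% of CD90.1-dominant cells of AAV-sgBaat and in 80.4% of those of AAV-sgSCR. These cells held 3146 of the 3149 Gzma UMIs of AAV-sgBaat, and 12712 of the 12726 of AAV-sgSCR. Within them Gzma had 3918 CPM in AAV-sgBaat, against 2755 CPM in AAV-sgSCR (log2 ratio 0.51), and Gzmb 421 against 241 CPM (0.80). The cells at the cut were few: 2 in AAV-sgBaat and 24 in AAV-sgSCR had 2 Ccl5 UMIs, and 9 and 69 had 1.

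Among CD90.2-dominant cells the Ccl5-positive share was 74.6% in AAV-sgBaat, 85.0% in AAV-sgSCR and 42.3% in mock. Within these cells Gzma had 331 CPM in AAV-sgBaat, 824 CPM in AAV-sgSCR and 1066 CPM in mock, and the log2 ratio between the AAV libraries was -1.32 [-1.49 to -1.15]. Here mock stood above both AAV libraries for Gzmb (381 CPM, against 238 in AAV-sgBaat and 272 in AAV-sgSCR), Gzmk (128 CPM, against 57.0 and 61.0) and Prf1 (155 CPM, against 68.2 and 61.3). Over the whole class Gzmb of mock, at 182 CPM, was not above both of them.

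Gzmm differed less between these cells in AAV-sgSCR than in the other libraries. The Ccl5-positive CD90.2-dominant cells had 64.1 CPM of Gzmm in AAV-sgBaat, 48.6 CPM [40.9 to 57.3] in AAV-sgSCR and 58.3 CPM in mock, and the Ccl5-low cells 10.1, 31.1 [18.4 to 49.1] and 4.15 CPM, on 4, 18 and 7 UMIs. The intervals overlap in AAV-sgSCR. Prf1 in the Ccl5-low CD90.2-dominant cells had 35.3 CPM in AAV-sgBaat, 27.6 CPM in AAV-sgSCR and 19.6 CPM in mock, below the Ccl5-positive values given above. Nkg7 had 610, 556 and 332 CPM in those Ccl5-low cells, and 1421, 1447 and 1544 CPM in the Ccl5-positive ones. In CD90.1-dominant cells of AAV-sgSCR Prf1 did not follow this order. The 191 Ccl5-low CD90.1-dominant cells of AAV-sgSCR had 114 UMIs of Prf1, or 108 CPM [89.1 to 130], beside 14 UMIs of Gzma and 6 of Gzmb, while the Ccl5-positive cells had 80.8 CPM [72.8 to 89.5] of Prf1. The 23 Ccl5-low cells of AAV-sgBaat had 0 UMIs of Prf1, which allows up to 36.6 CPM, and 924 CPM of Nkg7, against 1735 CPM of Nkg7 in those of AAV-sgSCR.

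**Figure D4:**
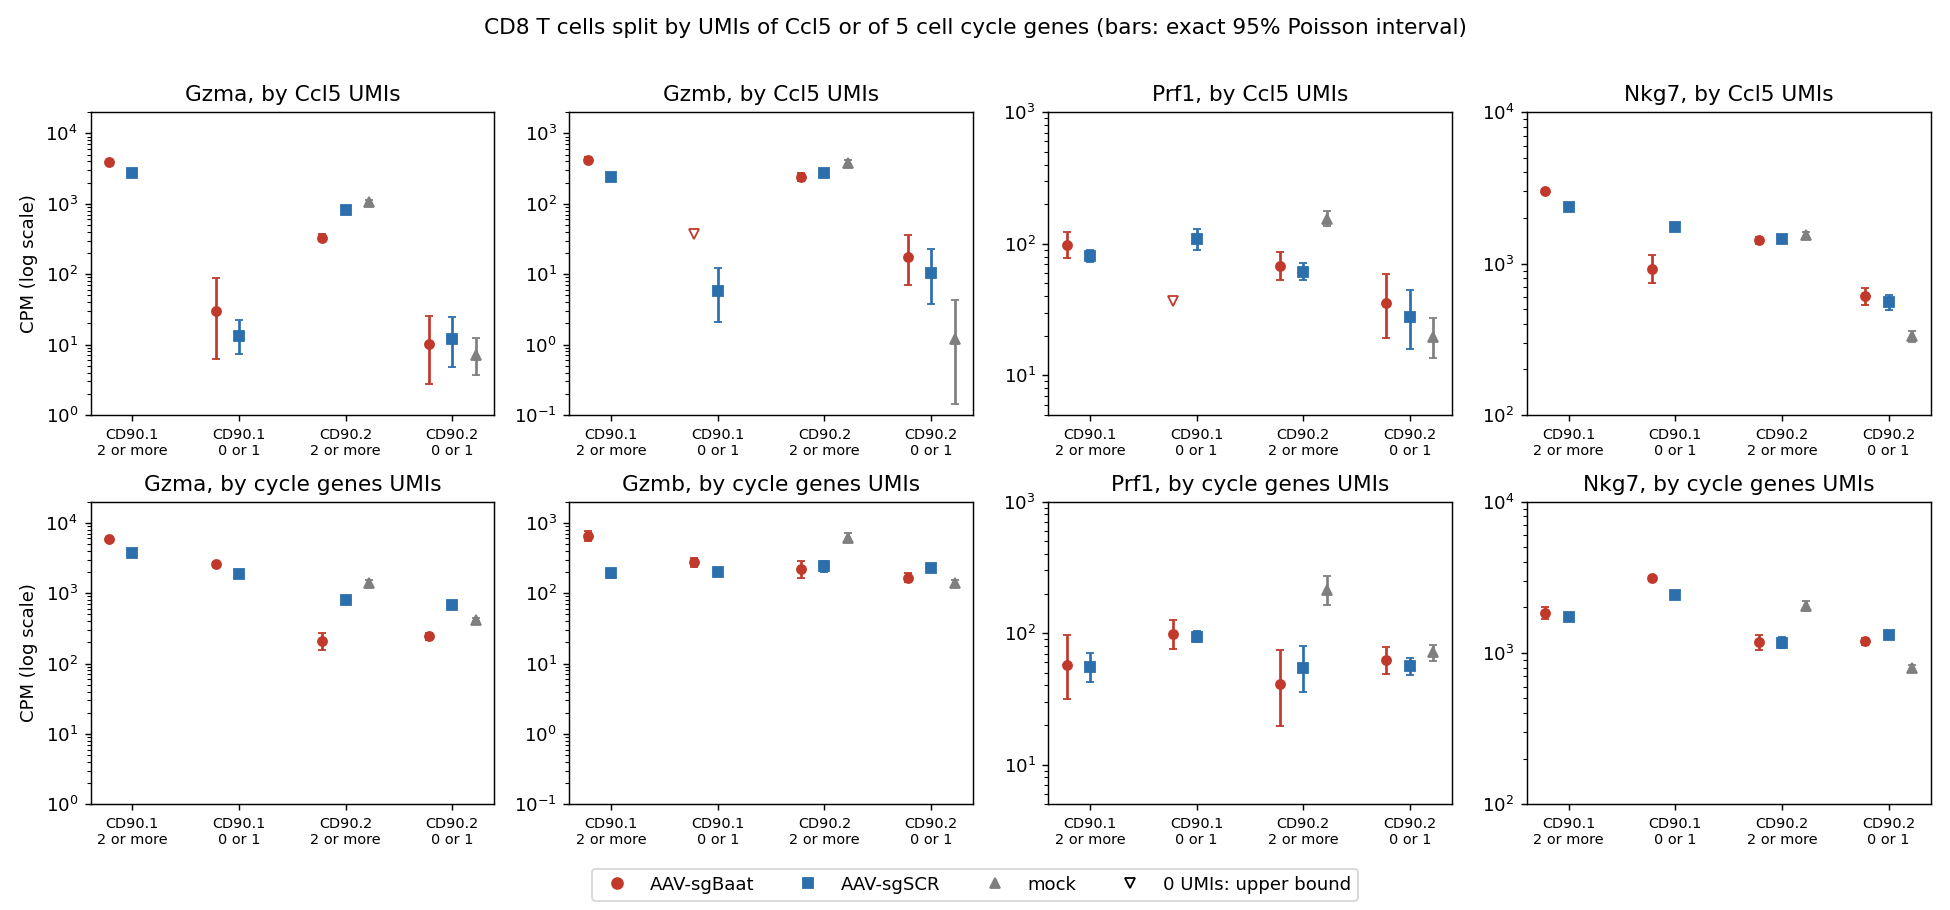
CPM (log scale) of Gzma, Gzmb, Prf1 and Nkg7 in CD8 T cells split by UMIs of Ccl5 (top) or of the 5 cell cycle genes (bottom), with AAV-sgBaat, AAV-sgSCR and mock from left to right. Bars are exact 95% Poisson intervals, and open triangles mark the upper bound where 0 UMIs were counted. Ccl5-low CD90.1-dominant cells held 3 Gzma UMIs in AAV-sgBaat, against 14 in AAV-sgSCR, whereas Prf1 was at 108 CPM in those of AAV-sgSCR.

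Granzyme K is a trypsin-like granzyme. Gzmk in CD90.2-dominant CD8 T cells had 41.3 CPM [31.3 to 53.6] in AAV-sgBaat, 51.1 CPM [43.9 to 59.2] in AAV-sgSCR and 60.7 CPM [52.5 to 69.9] in mock, on 57, 178 and 195 UMIs. ILC1 had 0 UMIs in each library, and NK, NKT and gamma-delta T cells had at most 7 in any library. In B cells, 0, 1 and 1 UMIs were counted.

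CD90.2-dominant cells with a Gzmk UMI had higher levels of Gzmb and Gzma than those without in each library. In CD90.2-dominant cells, the 30 with Gzmk in AAV-sgBaat had 455 CPM of Gzmb, the 107 in AAV-sgSCR 656 CPM and the 67 in mock 846 CPM, while those without Gzmk had 146, 160 and 81.0 CPM. Gzma had 1033, 2302 and 2091 CPM in the cells with Gzmk, and 156, 429 and 271 CPM in those without. The cells with Gzmk were not the deeper ones, with median depths of 3834.5, 3845 and 5709 UMIs, beside 4422, 5844.5 and 6133 UMIs in the cells without. Ccl5-positive cells held 56 of the 57 Gzmk UMIs of AAV-sgBaat, 177 of the 178 of AAV-sgSCR and all 195 of mock. Nearly all Ccl5-low cells were therefore among those without Gzmk, and the part of the Ccl5 split in this contrast was not tested.

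Granzyme M cleaves after methionine and leucine. Gzmm separated the CD8 classes more than Gzmk did. CD90.2-dominant cells had 48.6 CPM in AAV-sgBaat, 45.7 CPM in AAV-sgSCR and 29.9 CPM in mock, on 67, 159 and 96 UMIs, whereas CD90.1-dominant cells had 2 UMIs in AAV-sgBaat and the same count in AAV-sgSCR. CD90.1-dominant over CD90.2-dominant cells gave a log2 ratio of -4.46 [-7.53 to -2.55] in AAV-sgBaat, against -7.02 [-10.07 to -5.14] in AAV-sgSCR. Unthinned, the CD90.2-dominant cells with a Gzmm UMI had 346 CPM of Gzma in AAV-sgBaat, 264 CPM in AAV-sgSCR and 1057 CPM in mock, and those without Gzmm 221, 801 and 442 CPM, so the direction differed between libraries. NK cells had 4, 19 and 23 UMIs of Gzmm in AAV-sgBaat, AAV-sgSCR and mock, 10 of the 19 in 1 cell.

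Granzyme C belongs to the rodent granzymes next to Gzmb, and near-identical copies on that stretch can share reads, so its counts are uncertain in that respect. In ILC1, tissue-resident relatives of NK cells, Gzmc had 115 CPM [76.4 to 166] in AAV-sgBaat, 358 CPM [309 to 413] in AAV-sgSCR and 76.4 CPM [54.4 to 104] in mock, on 28, 189 and 39 UMIs. The log2 ratio between the AAV libraries was -1.64 [-2.27 to -1.06]. A single cell held 15 of the 28 UMIs of AAV-sgBaat, and without the top cell of each library the ratio was -2.58 [-3.51 to -1.76]. Thinned, 12.3% of ILC1 in AAV-sgBaat, 19.6% in AAV-sgSCR and 3.88% in mock held a UMI, and unthinned 19.3%, 30.4% and 9.71%, while B cells held 0, 0 and 1 UMI in all.

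In NKT and NK cells of AAV-sgSCR, single cells carried most of Gzmc. In NKT cells it had 9 UMIs in AAV-sgBaat, 142 in AAV-sgSCR and 108 in mock, but 1 cell held 108 of the 142, and without the top cells the log2 ratio was -0.34 [-1.76 to 0.85] in place of -2.04. Of the 355 NKT cells of mock, thinned, 8 held 1 to 2 UMIs of Gzmc, 3 held 3 to 9 and 0 held 10 or more. In NK cells of AAV-sgSCR 1 cell held 83 of 85 UMIs. CD8 T cells of a class and library held at most 8. Gzmf, whose upstream bases are the most like those of Gzmc among the 8 genes, had 4 UMIs in CD90.1-dominant cells of AAV-sgSCR and 0 in the other classes. Over all barcodes that passed the filters, Gzmf had 0 UMIs in AAV-sgBaat, 18 in AAV-sgSCR and 3 in mock.

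Perforin RNA followed NK cells. Prf1 had 554 CPM [474 to 643] in NK cells of AAV-sgBaat, 474 CPM [418 to 536] in those of AAV-sgSCR and 1020 CPM [972 to 1069] in those of mock. Thinned, 53.7%, 47.7% and 74.3% of NK cells held a UMI, and unthinned 72.2%, 80.2% and 94.1%, against thinned shares of 0.282%, 0.277% and 0.380% in B cells. ILC1 had 140, 90.9 and 196 CPM, NKT cells 82.0, 67.5 and 106 CPM, and CD90.2-dominant CD8 T cells 58.7, 55.7 and 84.1 CPM. In gamma-delta T cells 6, 2 and 41 UMIs were counted.

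In each library NK cells stood above ILC1 for Prf1 and Gzma, and in none of them for Gzmb beyond counting error. They exceeded ILC1 in Prf1 by 3.96-fold in AAV-sgBaat, 5.22-fold in AAV-sgSCR and 5.20-fold in mock, and in Gzma by 14.6-fold, 7.998-fold and 5.25-fold. For Gzmb, NK cells over ILC1 gave log2 ratios of 0.00 [-0.36 to 0.36] in AAV-sgBaat, -1.27 [-1.50 to -1.04] in AAV-sgSCR and 0.03 [-0.15 to 0.20] in mock.

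Nkg7 was high in each class. NK cells had 2771 CPM in AAV-sgBaat, 2410 CPM in AAV-sgSCR and 2784 CPM in mock, ILC1 1840, 1720 and 1637 CPM, NKT cells 1709, 1621 and 1358 CPM, and gamma-delta T cells 1100, 1076 and 1312 CPM. B cells had 18.4, 16.8 and 3.84 CPM. In CD90.2-dominant CD8 T cells Nkg7 had 1188 CPM in AAV-sgBaat, 1299 CPM in AAV-sgSCR and 908 CPM in mock.

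In ILC1, the log2 ratio of AAV-sgBaat over AAV-sgSCR was -1.03 [-1.33 to -0.74] for Gzmb, -1.64 for Gzmc, -0.37 [-0.65 to -0.11] for Gzma, 0.62 [-0.06 to 1.28] for Prf1 and 0.10 for Nkg7. Of these 5 genes 1 was past 1.5-fold higher, as were 9.73% of 4520 genes, and 2 were past it lower, as were 15.3%. A Gzmb UMI was held after thinning by 35.1% of ILC1 in AAV-sgBaat, 53.9% in AAV-sgSCR and 44.7% in mock, and unthinned 43.9%, 69.6% and 62.1%. The direction of Gzma depended on the gate: its log2 ratio was 0.0855 when ILC1 had to have 0 Cd3 UMIs, and 0.42 when NK cells and ILC1 were told apart by Klra genes alone.

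In NK cells that ratio was 0.49 [0.42 to 0.56] for Gzma, 0.24 [-0.07 to 0.55] for Gzmb and 0.22 [-0.07 to 0.51] for Prf1. The Gzmb value was the highest of all settings, which reached -0.60 with cells thinned to 1000 UMIs, and with each cell weighted equally Gzmb was at -0.32 and Prf1 at -0.09. Of 6 counted genes 0 were past 1.5-fold higher, as were 10.1% of 4637 genes, and 2 (Gzmc and Gzmm) were past it lower, as were 12.4%, both on counts that 1 cell of AAV-sgSCR dominated. In NKT cells 0 of 5 genes were past 1.5-fold higher, as were 10.8% of 4474 genes, and 1 (Gzmc) was past it lower, as were 21.0%. Gzma was at 0.40 there, and at -0.18 without the top cell of each library. In gamma-delta T cells 0 of 3 counted genes were past 1.5-fold in either direction, as were 12.3% of 3309 genes higher and 14.3% lower. Gzma was at 0.57 there, and at -0.18 with at most 5% mitochondrial UMIs.

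Both AAV libraries were also set against the same mock library, so that the following pairs of ratios are not independent. In gamma-delta T cells, of 4 counted genes 3 were past 1.5-fold lower in AAV-sgBaat, as were 26.6% of all genes, and 3 in AAV-sgSCR, as were 21.2%, while 0 were past it higher, as were 15% and 12.5%. The log2 ratios over mock were -0.84 in AAV-sgBaat and -1.41 in AAV-sgSCR for Gzma, -0.92 and -0.91 for Gzmb, and -1.46 and -4.01 [-7.10 to -2.06] for Prf1. Other genes of this class also differed between these libraries. Tmem176a, Tmem176b and Ltb were at 1728 and 1532 CPM in the AAV libraries, against 789 CPM in mock, and the gamma constant genes at 794 and 752 CPM, against 496 CPM. Their part in the result was not tested.

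In NK cells, of 5 counted genes 0 were past 1.5-fold higher in AAV-sgBaat over mock, as were 9.56% of all genes, and 1 lower, as were 32.1%. In AAV-sgSCR over mock 2 of 6 (Gzmc and Gzmm, with 83 of 85 and 10 of 19 UMIs of AAV-sgSCR in 1 cell) were past it higher, as were 9.57%, and 3 lower, as were 29.0%. Prf1 was at -0.88 [-1.12 to -0.65] in AAV-sgBaat and at -1.105 [-1.30 to -0.91] in AAV-sgSCR, and Gzma at -0.27 and -0.77. The 3 ILC1 genes named above for the check of the class were at 352 CPM in NK cells of AAV-sgBaat and 433 CPM in those of AAV-sgSCR, against 133 CPM in mock, and their part in the result was not tested. In ILC1, 1 of 5 genes (Gzmc, 0.59 [-0.17 to 1.33]) was past 1.5-fold higher in AAV-sgBaat, as were 9.39% of all genes. Past it lower was 1 (Gzma), as were 31.0%. A single cell held most of these Gzmc UMIs of AAV-sgBaat. In AAV-sgSCR 1 (Gzmc, 2.23) was past it higher, as were 8.8%, and 2 (Gzma and Prf1) lower, as were 24.7%. Gzma in ILC1 was at -1.75 [-1.999 to -1.51] in AAV-sgBaat and at -1.375 [-1.54 to -1.21] in AAV-sgSCR.

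In NKT cells, 1 of 5 genes was past 1.5-fold higher in AAV-sgBaat over mock, as were 11.6% of all genes, and 0 lower, as were 35.2%. In AAV-sgSCR over mock 1 (Gzmc, 2.21) was past it higher, as were 9.52%, and 2 (Gzma, -0.64, and Prf1, -0.66) lower, as were 21.8%. A single cell held most of these Gzmc UMIs of AAV-sgSCR. Gzmb was the gene past 1.5-fold in AAV-sgBaat, at 0.74, and was at 0.53 in AAV-sgSCR, under that limit. In CD90.2-dominant CD8 T cells, of 6 genes 1 (Gzmm, 0.70) was past 1.5-fold higher in AAV-sgBaat over mock, as were 11.4% of all genes, and 1 (Gzma, -1.097) lower, as were 19.2%. In AAV-sgSCR over mock 1 (Gzmm, 0.61) was past it higher, as were 12.3%, and 1 (Prf1, -0.59) lower, as were 11.4%. Within the Ccl5-positive cells Gzmm was at 0.14 [-0.35 to 0.62] in AAV-sgBaat over mock and at -0.26 [-0.66 to 0.14] in AAV-sgSCR over mock. In the Ccl5-low cells of AAV-sgSCR over mock it was at 2.90 [1.58 to 4.41], on 18 and 7 UMIs. The part of the differing Ccl5-positive shares in the whole-class ratios was not tested.

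The genes that pack, release and restrain granules were read in AAV-sgBaat over AAV-sgSCR. In CD90.1-dominant CD8 T cells, 0 of 5 packing genes were past 1.5-fold higher and 1 lower, 0 of 14 release genes higher and 2 lower, 0 of 4 counted inhibitor genes higher and 2 lower, and of 11 transcription factors 1 higher and 1 lower. Of the 9868 genes counted in this class, 9.74% were past 1.5-fold higher and 16.4% lower. Rab27a, which docks granules at the membrane, had 17.7 CPM in AAV-sgBaat, against 54.0 CPM in AAV-sgSCR, on 16 and 306 UMIs. Serpinb9, an inhibitor of granzyme B, had 23.2 against 60.3 CPM, and Ctsl, a lysosomal protease, 5.53 against 31.0 CPM. Tcf7, a transcription factor of naive and memory T cells, was the 1 factor past 1.5-fold higher, at 84.1 CPM in AAV-sgBaat, against 29.5 CPM in AAV-sgSCR. The other factors of the list, Bach2 and Klf2 among them, were not past it higher, and the median log2 ratio of the list was 0.23.

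In CD90.2-dominant CD8 T cells, of the same lists 0 packing genes were past 1.5-fold, while 2 release genes (Rab27a at -0.72 and Stx11 at -1.99) and 2 inhibitor genes (Serpinb9 at -0.86 and Serpinb6a at -0.59) were past it lower. Among the transcription factors Zeb2 was at 0.71 and Prdm1 at -1.11. Of the 8953 genes counted in this class, 5.0% were past 1.5-fold higher and 11.9% lower. Rab27a was at -1.25 [-2.69 to -0.03] in NK cells, and at -2.74 [-5.85 to -0.76] in ILC1 on 2 and 29 UMIs. In NK cells 2 of 12 counted release genes were past 1.5-fold higher and 3 lower, as were 10.1% and 12.4% of 4637 genes. In ILC1 0 of 11 counted release genes were past it higher and 2 lower, as were 9.73% and 15.3% of 4520 genes.

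Over the 17 combinations of class and library with at least 30 cells, the genes closest in pattern to Gzma were Gsap (Pearson r = 0.89), Irf8 (0.88), Kif13b (0.88), H3f3b (0.86) and Snx3 (0.85), and those closest to Prf1 were Irf8 (0.94), Scd2 (0.92), Sypl (0.92), Baz2b (0.91) and Mgat1 (0.91). Those closest to Gzmb were Mvb12b (0.86), Dhx36 (0.86), Fgl2 (0.85), Mfsd5 (0.84) and Clnk (0.82). Those closest to Gzmk were Npc2 (0.87), Cd8b1 (0.87), which was used to set the CD8 class, Bend4 (0.85), Rps26 (0.84) and Rpl22l1 (0.83). The values are of log2(CPM + 10) among 7650 genes, and the points share libraries and depth. Among the 8 genes themselves, r was 0.80 between Gzma and Nkg7, 0.76 between Gzma and Prf1, 0.67 between Gzmk and Gzmm, and -0.80 between Gzmb and Gzmk. Gzmk had few UMIs in the classes other than CD8 T cells, and these r describe classes and not single cells. Of CD90.2-dominant cells, thinned, 2.11% in AAV-sgBaat, 5.29% in AAV-sgSCR and 4.17% in mock held both Gzmb and Gzmk. If the 2 were independent, 0.86%, 2.02% and 0.93% would.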

How the data were processed

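Counts are the unique molecular identifiers (UMIs) per gene and barcode that the authors deposited as 3 matrices, made with Cell Ranger 6.0.1 on mm10 per the submitters' processing notes and the matrix headers, with antibody tag counts in the same matrices. The labels' protocols give 10x 3′ libraries of sorted liver immune cells, so that counts are not per gene length: levels are not compared between genes, and a ratio of 2 genes is compared only between classes. Each matrix holds antibody counts for CD90.1, CD90.2 and F4/80, whereas each antibody library's label names 1 antibody; the CD90.1 and CD90.2 counts of each matrix were used, with at least 100 of them asked of a CD8 T cell.

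Values were computed in Python 3.11.15 with numpy 2.4.6, scipy 1.17.1 and pandas 2.3.3, and sequences with Biopython 1.88. UMIs were summed per class and library and divided by the class total (CPM). A gene was counted in a comparison from 20 UMIs over both libraries. Intervals are exact Poisson for levels, Clopper-Pearson for shares and conditional binomial for ratios and cover counting error only. Groups were not tested, since each is 1 library. Shares were also computed with each cell thinned to 1500 UMIs. The ratio step was tested on simulated data. Doublets were handled by leaving out barcodes with markers of another lineage, with no doublet caller.

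The genes, the lists and the classes were chosen with earlier results of these data known. The named genes are all 8, the pathway lists whole and the 5 genes most like Gzma, Gzmb, Gzmk and Prf1. Alternatives tried are given in the closing section. One check of the NK class is not reported here.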

Additional observations from a re-analysis of the deposited data

Results flagged for a closer look

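In CD8 T cells, Gzma went in opposite directions for AAV-sgBaat over AAV-sgSCR. The log2 ratio was 0.634 in CD90.1-dominant cells and -1.53 in CD90.2-dominant cells, and this difference was not tested, since each group is 1 library. Gzmb had a log2 ratio of 0.921 in CD90.1-dominant CD8 T cells and of -1.03 in ILC1, and this difference was not tested either.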

How the results depend on the processing

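Ratios between both AAV libraries were recomputed under 15 alternatives in each CD8 class and 13 in each other class. Thinning to 1000 UMIs and leaving out the barcode with most UMIs of a gene were chosen after seeing the data. Each reported median was given a range, from the median of its genes' lower bounds to that of their upper bounds. This range is not a counting interval of the median. Of the medians, 75 values stayed inside the range of the reported one, 5 left it and 2 reversed. A reversal was counted only if that range excluded 0. Inside their wide ranges, the CD90.1-dominant median reached 0.63 with no filter on low counts and the gamma-delta median -0.18 with at most 5% mitochondrial UMIs. Counted by sign alone, 7 of 82 medians and 37 of 400 single-gene values changed sign, among them Gzmb in NK cells (down to -0.60) and NKT cells (-0.08) and Gzmk in CD90.1-dominant CD8 T cells (up to 0.31). The median moved to 0.23 in CD90.1-dominant CD8 T cells (mitochondrial and ribosomal genes left out of the total), to -0.20 in NK cells (each cell weighted equally), to 0.57 in gamma-delta T cells with no filter on low counts and 0.35 with mixed-lineage barcodes kept, and to -0.66 in ILC1 without the barcode with most UMIs. It reversed in ILC1 to 0.0855 with a stricter Cd3 gate and to 0.18 with the Klra split. By the same rule, applied to each gene's own counting interval, 337 single-gene values stayed inside, 59 left and 4 reversed. Those that reversed were Gzma in ILC1, to 0.0855 and 0.42 under those last 2 settings. The others were Gzma in gamma-delta T cells, to -0.18 with at most 5% mitochondrial UMIs, and Gzma in NKT cells, to -0.18 without the barcode with most UMIs. With mixed-lineage barcodes kept, Gzma was at 0.60 in CD90.1-dominant and -1.03 in CD90.2-dominant CD8 T cells. Over all settings it ranged from 0.49 to 0.73 in the first class and from -1.93 to -1.03 in the second. Gzmb ranged from 0.46 to 1.04 in CD90.1-dominant CD8 T cells and from -1.13 to -0.60 in ILC1. No paired analysis was possible because each group is 1 library. The causes of these moves were not tested. Depth limits the rarer genes: Gzmm, Gzmk and Gzmc rest on under 200 UMIs in each class and library.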

Other observations

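T barcodes with at least 2 UMIs of the immature genes Dntt, Arpp21, Rag1 or Ptcra carried Gzma. There were 806 such cells in AAV-sgBaat, 91 in AAV-sgSCR and 4 in mock. Gzma was at 364 CPM in AAV-sgBaat and 390 CPM in AAV-sgSCR, in 73.7% and 87.9% of cells, and thinned to 1500 UMIs in 35.9% and 33.3%, against 2.54% and 3.74% of B cells. Median depths were 8867 and 13499 UMIs, against 2186 and 2921 UMIs in B cells. Gzmb was at 9.74 CPM in AAV-sgBaat and 9.68 CPM in AAV-sgSCR, and Nkg7 at 40.0 CPM and 73.7 CPM. The ratio of Gzma to Nkg7 UMIs, which can be compared between classes but does not rank the 2 genes, was 9.11 in AAV-sgBaat and 5.29 in AAV-sgSCR. NK cells had 3.42 and 2.79 there, CD90.1-dominant CD8 T cells 1.26 and 0.994, and B cells 0.76 and 1.28.

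Barcodes with basophil and mast cell markers carried Gzmb in AAV-sgSCR. Of 28 such cells with a UMI of Mcpt8, 10 held a Gzmb UMI (178 UMIs), and of 13 without Mcpt8, 2 did, 1 of them with 103 of 104 UMIs. In AAV-sgBaat 3 of 53 and 2 of 16 held one, with 4 and 6 UMIs.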
